A study of Mus musculus with 2 samples.

Results

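The genes described here are 8 members of the complement system, taken by symbol from the 32285 genes of the deposited gene table: C1qa, C1qb, C1qc, C3, C3ar1, C5ar1, Cfb and Cfp. They were measured as UMIs (unique molecular identifiers, 1 per captured RNA molecule) in single CD45+ cells sorted from mouse tumours. The tumours grew from B16-hAXL, a mouse B16 melanoma line named for human AXL, the receptor tyrosine kinase that binds Gas6. Wild-type mice were given either PBS or an AXL antibody, 6C5 (200 µg, intraperitoneally), and the samples are labelled day 15. Each group has 1 library, and the mice behind it are not counted in the sources used here. The question, from the series title, is how such an antibody changes the tumour's immune cells.

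Complement is a cascade of plasma and tissue proteins that tags targets for uptake and draws in leukocytes. C1q, assembled from the products of C1qa, C1qb and C1qc, starts the classical pathway when it binds antibody complexes or dying cells, and macrophages are a main source of it. Factor B (Cfb) and properdin (Cfp) belong to the alternative pathway, in which C3 is cut and its fragments amplify further cleavage. C3a and C5a, the small fragments released from C3 and C5, act on the receptors encoded by C3ar1 and C5ar1 on myeloid cells.

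The 3 C1q genes lie side by side on the minus strand of chromosome 4 (GRCm38): C1qb at chr4:136880129-136886187, C1qc at chr4:136889804-136893065 and C1qa at chr4:136895917-136898803. C3 (chr17:57203970-57228136), Cfb (chr17:34856374-34862518), C3ar1 (chr6:122847138-122856161), C5ar1 (chr7:16246743-16259540) and Cfp (chrX:20925454-20931555) are on the minus strand too. Cfb overlaps the same-strand gene model Gm20547, so reads could be split between the 2 and the Cfb counts are uncertain. RefSeq promoter windows on GRCm38.p6 were matched for 6 of the 8 members, all but C1qa and Cfb. Upstream bases of 4 of them are shown, the C1q neighbours that vary together and the pair of C3 and its fragment's receptor. Each reads 5′ to 3′ on the minus strand, cut where the GENCODE gene begins, and capitals mark matches to the motifs searched. The windows are chr4:136886201-136886450 (C1qb), chr4:136893066-136893164 (C1qc), chr17:57228137-57228386 (C3) and chr6:122856162-122856407 (C3ar1).
C1qb: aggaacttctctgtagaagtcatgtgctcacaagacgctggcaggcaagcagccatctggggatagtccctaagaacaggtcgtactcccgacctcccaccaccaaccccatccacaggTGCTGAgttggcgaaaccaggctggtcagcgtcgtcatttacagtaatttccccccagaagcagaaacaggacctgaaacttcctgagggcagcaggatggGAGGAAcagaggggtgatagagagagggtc
C1qc: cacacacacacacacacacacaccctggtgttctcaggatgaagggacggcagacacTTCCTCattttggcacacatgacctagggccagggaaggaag
C3: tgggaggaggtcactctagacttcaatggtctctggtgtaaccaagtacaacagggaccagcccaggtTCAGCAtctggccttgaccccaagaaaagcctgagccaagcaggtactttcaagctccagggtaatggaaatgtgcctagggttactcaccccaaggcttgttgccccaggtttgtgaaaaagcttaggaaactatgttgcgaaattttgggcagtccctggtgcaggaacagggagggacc
C3ar1: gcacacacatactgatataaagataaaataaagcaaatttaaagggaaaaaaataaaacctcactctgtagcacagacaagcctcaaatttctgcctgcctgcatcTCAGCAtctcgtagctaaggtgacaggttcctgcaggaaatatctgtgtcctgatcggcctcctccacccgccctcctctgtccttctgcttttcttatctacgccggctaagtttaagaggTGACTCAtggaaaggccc
Both strands of the 250 bases before each RefSeq start were searched for 4 motifs, and positions are those of the match's first base counted back from the start. GAGGAA, the core of PU.1-type ETS sites, was found in C1qb at -30 and in C1qc at -193, and 23.3% of all 32851 promoter windows hold it. TGCTGA, a MAF half-site, was found in C1qb at -131, C3 at -182, C3ar1 at -144 and C5ar1 at -17, against 16.1% of all windows. TGANTCA, the AP-1 site, was found in C3ar1 at -22, against 6.75% of windows. An interferon-type element, 2 copies of GAAA with any 2 bases between them, is in none of the 6 windows and in 2.98% of all. None of these motifs overlapped another in the windows shown, and a match is only a match of letters.

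Library totals were 78923567 UMIs for PBS and 85921419 for 6C5. After filters 4413 PBS and 5083 6C5 cells had a cell type name, with median depths of 9411 and 7725 UMIs, and 221 barcodes occurred in both libraries among those clustered (39 among named cells). A median of 0.662% of a named PBS cell's UMIs, and of 0.336% in 6C5, was mitochondrial. Names rest on marker genes and mean "like" that type: cell classes were called without any complement gene among the clustering genes or the markers. The sort left 176 PBS and 399 6C5 melanoma-like cells, whose Ptprc (CD45) level was 8.53 and 8.10 CPM against 354 and 330 CPM in monocyte-like and macrophage-like cells. CPM is UMIs of a gene per 1000000 UMIs of the class or state, which cannot tell fewer expressing cells from less RNA per cell. Differences compare 2 libraries and have no replicate check. Intervals in brackets are exact 95% intervals that cover counting error only. A member counts as higher or lower when its CPM ratio is past 1.5-fold with at least 50 UMIs over both libraries.

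The 1821 PBS and 1885 6C5 cells named monocyte-like or macrophage-like held most UMIs of all 8 members, from 64.3% of the UMIs of Cfp in named PBS cells to 90.9% of those of C1qc. In these cells the 3 C1q chains were lower in 6C5, C3, C3ar1 and C5ar1 were higher, and Cfb and Cfp were within 1.5-fold. Thus 3 of 8 members were higher and 3 lower, where 6.70% of the 11396 genes tested were higher and 30.5% lower, and the median log2 ratio of all genes was -0.34. With TMM factors, which move that median by 0.32, the 3 higher members stayed past 1.5-fold and none was lower. The plot of log2 ratios gives the members in these cells, in DC-like, neutrophil-like and T-like cells and in each myeloid state compared. NK-like and B-like cells were compared too but are not drawn.

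**Figure D1:**
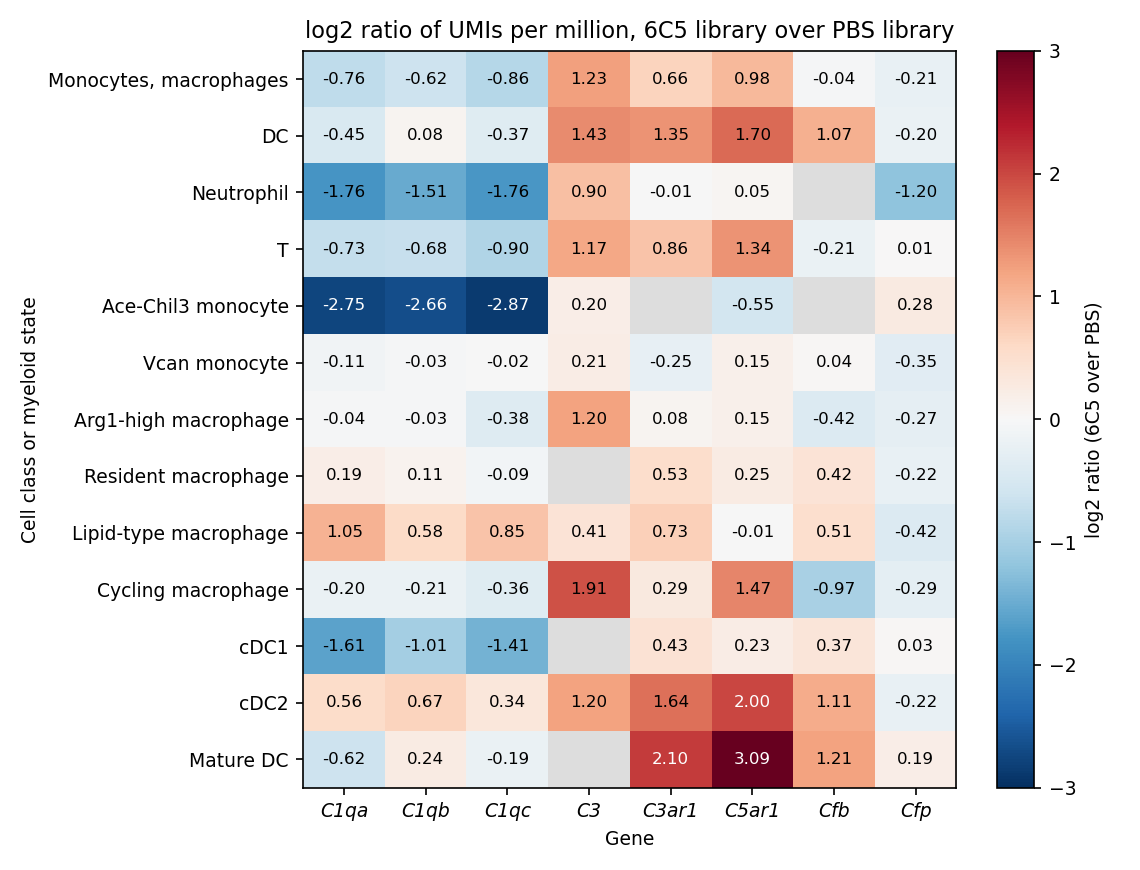
The log2 ratio of CPM, 6C5 library over PBS library, is given for each member (columns). Rows are the monocyte and macrophage, DC, neutrophil and T classes and each myeloid state with enough cells in both libraries. NK-like and B-like cells are not drawn. Red is higher and blue lower in 6C5, grey cells had under 50 UMIs, and C5ar1 in mature DCs (3.09) is the highest value shown while C1qc in Ace-Chil3 monocytes (-2.87) is the lowest.

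Summed over its 3 chains, C1q went from 14917 CPM (14870 to 14964) in PBS to 8995 CPM (8955 to 9035) in 6C5, a ratio of 0.603 (0.600 to 0.606). C1qa went from 4421 to 2615 CPM (ratio 0.591), C1qb from 6105 to 3969 CPM (0.650) and C1qc from 4391 to 2412 CPM (0.549). On the log2 scale the summed ratio was -0.73, and it was -0.41 with TMM factors and -0.38 with DESeq2 size factors, under 1.5-fold in both. The share of cells with a C1q UMI, after every cell was thinned to 1000 UMIs, was 77.5% (75.5 to 79.4) in PBS and 63.2% (60.9 to 65.3) in 6C5. Without thinning it was 92.4% and 76.7%. UMIs of all 3 chains together were found in 62.8% of thinned PBS cells and 42.4% of thinned 6C5 cells.

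The class holds 9 states, and the level of C1q differed more between them than between libraries within a state. It was highest in the Negr1 macrophages, a state led by Negr1, Ptprm and Vcam1, with 22491 CPM in PBS. Cycling macrophages followed with 18280 CPM in PBS and 15389 in 6C5, and resident macrophages, led by Lyve1, Gas6 and Cbr2, with 16567 and 17500 CPM. Interferon-type macrophages, led by Gbp2b and Cxcl9 among others, had 10009 and 13065 CPM, and lipid-type macrophages, led by Ctsk and Atp6v0d2, had 6558 and 11214 CPM. The Arg1-high macrophages had 3024 and 2774 CPM, the Vcan monocytes 1848 and 1789, and the Arg1-high monocytes 1320 and 2048. In Ace-Chil3 monocytes, led by Ace and Treml4, C1q was at 529 CPM in PBS and 78.8 CPM in 6C5. From the highest to the lowest state the PBS level thus spanned 22491 to 529 CPM, and neighbours in that order had separate counting intervals.

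**Figure D2:**
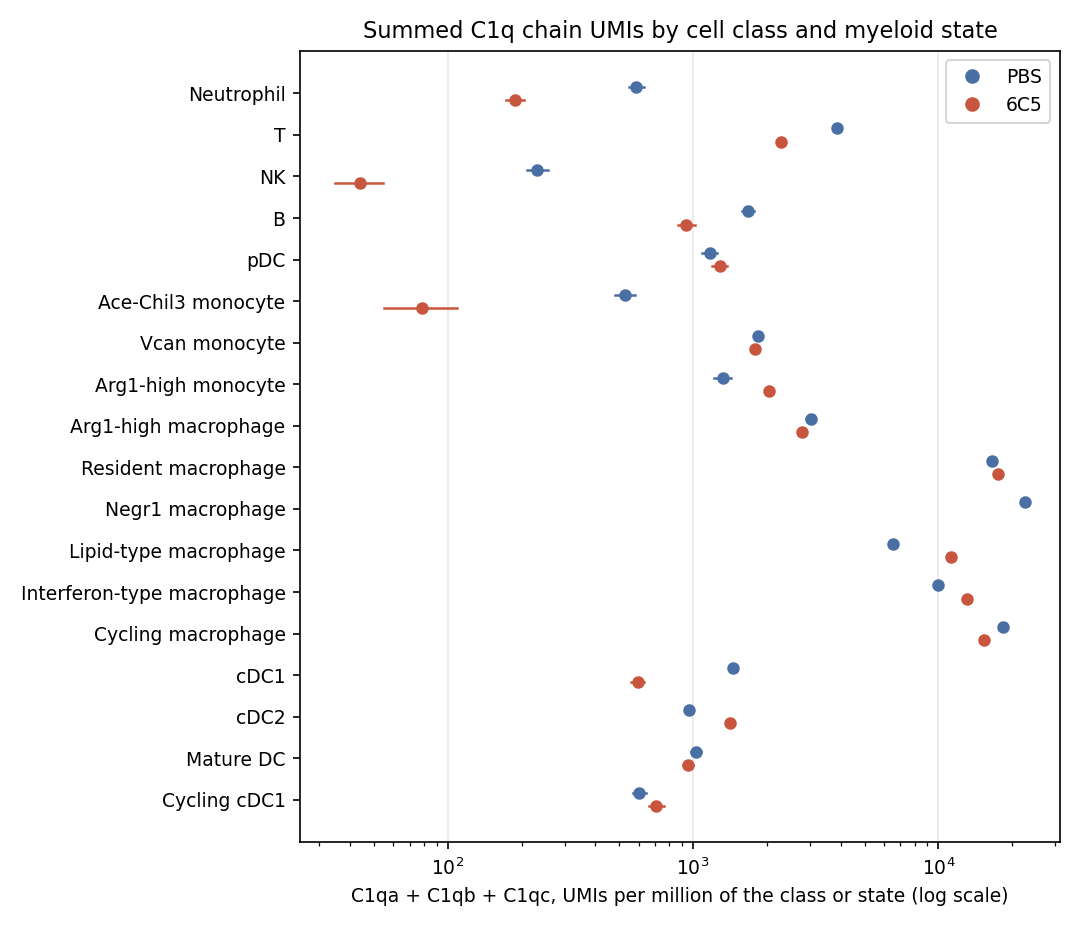
UMIs of C1qa, C1qb and C1qc together per 1000000 UMIs of each class or state (log axis), in PBS (blue) and 6C5 (red), with points for the level and bars for the exact 95% counting interval. The 4 Negr1 macrophages of the 6C5 library are not drawn, and resident, Negr1, interferon-type and cycling macrophages lie above 10000 in each library drawn.

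In 4 of the 6 states compared the libraries differed less than in the class as a whole. Of the 6 states with at least 50 cells in each library, C1q was past 1.5-fold in lipid-type macrophages (higher, 1.71, 1.67 to 1.75) and Ace-Chil3 monocytes (lower, 0.149, 0.103 to 0.209). The ratio was 1.06 in resident macrophages, 0.842 in cycling macrophages, 0.917 in Arg1-high macrophages and 0.968 in Vcan monocytes. Resident macrophages of the libraries were not alike in other genes. Lyve1, a leading gene of that state, was at 270 CPM in PBS against 6.84 in 6C5, while Spp1 (osteopontin) was at 205 and 2484. In Ace-Chil3 monocytes free RNA was estimated to supply 42.5% of the C1q UMIs in PBS and 93.0% in 6C5, and with 1000 variable genes the log2 ratio turned from -2.75 to 0.19. The lipid-type ratio ranged from 0.43 to 1.03 on the log2 scale over the alternatives, under 1.5-fold at Leiden resolution 2. Lipid-type macrophages of the libraries were not alike either. Ctsk, a leading gene of that state, rose from 9.91 CPM (PBS) to 71.4 CPM (6C5). Vcan fell from 45.4 to 12.8 CPM and Chil3 from 144 to 76.2 CPM. Arg1 (505 and 632 CPM) and Spp1 (2409 and 2808 CPM) differed less. The part of these differences in the lipid-type C1q ratio was not tested.

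The states that held the C1q UMIs were not the same in the 2 libraries. Negr1 macrophages numbered 573 in PBS and 4 in 6C5, and held 49.0% of the PBS and 0.281% of the 6C5 C1q UMIs of the class. Cycling macrophages (305 and 63 cells) held 29.1% and 10.7%. In 6C5 the interferon-type macrophages (34 PBS and 463 6C5 cells) held 37.7% and the lipid-type macrophages (76 and 363 cells) 28.6%, against 1.26% and 2.07% in PBS. In the 6 shared states alone, at each library's own mix, C1q went from 11599 to 9382 CPM (ratio 0.809). With the mix of these 6 states held at the pooled proportions, C1q went from 9946 to 10327 CPM (ratio 1.04). Over the alternatives the fixed-mix log2 ratio lay between -0.21 and 0.07. Each refit used the states with at least 50 cells in both of its libraries, which were not always these 6. Leaving the Negr1 macrophages out, the class log2 ratio was -0.33. A state found in 1 library only cannot be told apart from a property of that library.

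**Figure D3:**
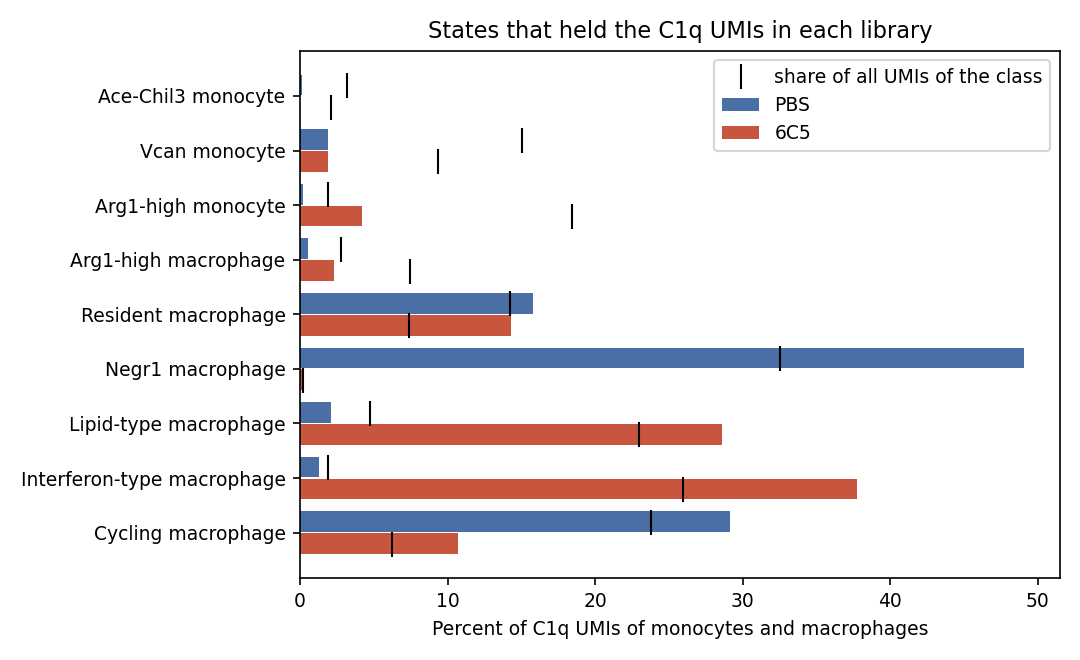
Bars give the percent of the class's C1q UMIs in each monocyte or macrophage state, PBS in blue and 6C5 in red, and black ticks give the state's percent of all UMIs of the class. Negr1 macrophages hold 49.0% in PBS, and interferon-type and lipid-type macrophages hold 37.7% and 28.6% in 6C5.

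The 3 chains varied together but not in equal parts. Levels were compared over 34 profiles, each a class or state in 1 library with at least 50 cells. Classes split into states entered only as those states, and melanoma-like cells were included. The log2 levels correlated at r = 0.997 for C1qa with C1qc, 0.995 for C1qb with C1qc and 0.990 for C1qa with C1qb. The profiles come from 2 libraries, and r is a description. C1qb made up 39.6% of the C1q UMIs in PBS resident macrophages, 40.7% in Negr1 and 40.2% in cycling macrophages. It made up 53.2% in PBS Vcan monocytes, 57.6% in PBS Arg1-high monocytes and 53.2% in 6C5 Arg1-high monocytes. Free RNA had 42.7% in PBS and 46.3% in 6C5. In lipid-type macrophages the C1qb share was 50.3% in PBS and 43.8% in 6C5, as C1qa was 2.07-fold and C1qc 1.80-fold higher in 6C5 and C1qb 1.49-fold. Shares compare 1 chain between states and say nothing of the chains' relative levels, which were not set per length.

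Outside the class, C1q UMIs were found in every cell type, partly at the level free RNA gives. NK-like cells, which are not known to make C1q, had 231.5 CPM in PBS and 43.7 in 6C5, and after thinning 24.9% and 5.76% of them held a C1q UMI (67.8% and 26.4% unthinned, median depths 4459.5 and 5295.5 UMIs). Neutrophil-like cells had 588 and 188 CPM, of which free RNA was estimated to supply 106% and 79.1%. The PBS level is thus not above that estimate, while the 6C5 level (173 to 205 CPM) is above the 149 CPM estimated. That interval leaves out the error of the estimate, which was not measured. In NK-like cells the estimate was 55.5% of the C1q level in PBS and 123% in 6C5. T-like cells had 3848 and 2282 CPM with an estimated 4.55% and 3.50% from free RNA. That level sat in few cells: the median T-like cell had 3.10 C1q UMIs per 10000 in PBS and 0 in 6C5, and the 90th percentile was 73.0 and 43.6. The same cells held the macrophage genes Csf1r at 102 and 77.4 CPM and Adgre1 at 103 and 84.6 CPM, and the part of doublets in their C1q was not tested. B-like cells had 1681 and 938 CPM, with an estimated 27.2% and 13.6% from free RNA. C1qa and C1qb in T-like cells turned from lower to higher with at least 1000 UMIs per barcode or with no doublet removal.

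Dendritic cells held little C1q, at 1097 CPM in PBS and 966 in 6C5. In cDC1 it went from 1459 to 595 CPM (ratio 0.408, 0.382 to 0.435), and in cDC2 from 962 to 1418 CPM (1.47, 1.41 to 1.55). Neither direction held over the alternatives: the cDC1 log2 ratio turned from -1.29 to 0.99 with at least 1000 UMIs per barcode, and the C1qb ratio of cDC2 from 0.67 to -0.27 at Leiden resolution 2. After thinning 17.9% of PBS and 11.1% of 6C5 cDC1 held a C1q UMI, and 25.8% and 20.4% of cDC2, against the 24.9% and 5.76% of NK-like cells.

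C3, the central component of the cascade, was highest in monocytes, interferon-type macrophages and neutrophil-like cells. Ace-Chil3 monocytes had 223 CPM in PBS and 256 in 6C5, Vcan monocytes 121 and 141, Arg1-high monocytes 123 and 149 and interferon-type macrophages 148 and 128. Resident (6.58 and 14.3 CPM) and cycling macrophages (5.08 and 19.1 CPM) had the least of the monocyte and macrophage states. C3 did not follow the order of C1q: over the 34 profiles its log2 level correlated with that of C1qc at r = 0.083. In the class C3 went from 39.8 to 93.6 CPM, a ratio of 2.35 (2.18 to 2.54). In the 6 shared states alone, at each library's own mix, C3 went from 46.2 to 59.4 CPM (1.28). At the fixed mix of these 6 states it went from 45.3 to 60.6 CPM (1.34). The C3 ratio thus fell when the other states were left out, and not when the mix was fixed. Vcan monocytes held 45.8% of the class's C3 UMIs in PBS, while interferon-type macrophages (35.4%) and Arg1-high monocytes (29.4%) held most in 6C5. Arg1-high macrophages went from 28.5 CPM (20 UMIs) to 65.4 CPM (2.30, 1.42 to 3.91). That log2 ratio was 0.17 with 1000 variable genes, and it had a value under only 5 alternatives, against 9 for cycling macrophages. Cycling macrophages showed a ratio of 3.75 (2.14 to 6.53) from 31 and 26 UMIs.

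Neutrophil-like cells (515 and 1056), which carry much of the anaphylatoxin receptor C5ar1, also held C3, at 119 CPM in PBS and 221 in 6C5 (1.86, 1.57 to 2.22). After thinning 9.06% of PBS and 18.2% of 6C5 neutrophil-like cells had a C3 UMI, and free RNA was estimated to supply 1.62% and 0.678%. Of the 7 members with enough UMIs there, C3 was the 1 that was higher, C1qa, C1qb, C1qc and Cfp were lower, and C3ar1 and C5ar1 were within 1.5-fold. The C1q calls rest on counts that are mostly free RNA by the estimate above, and C1qb turned to 3.30 (log2) with free RNA subtracted. That value rests on a floor of 3 UMIs for PBS, where the free RNA estimate exceeded the C1qb count. The Cfp call was lost, at -0.15 on the log2 scale, with at least 1000 UMIs per barcode. Of all genes tested in neutrophil-like cells, 16.0% were higher and 29.1% lower.

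Cfb, the protease of the alternative pathway convertase, was nearly level in the class, with 242 CPM in PBS and 234 in 6C5 (0.970, 0.935 to 1.01). It was highest in interferon-type (347 and 421 CPM) and Negr1 macrophages (388 CPM in PBS), and low in Ace-Chil3 monocytes (29.3 and 41.6 CPM). Negr1 macrophages held 52.2% of the class's Cfb UMIs in PBS, and interferon-type macrophages 46.7% in 6C5, so the like class levels came from different states. Within states Cfb was lower in cycling macrophages, from 255 to 131 CPM (0.512, 0.436 to 0.598). Cycling macrophages of the libraries were not alike in other genes. Negr1 fell from 298 CPM (PBS) to 17.6 CPM (6C5) and Lyve1 from 51.2 to 1.47 CPM. Spp1 rose from 96.3 to 1997 CPM, while Adgre1 (377 and 342 CPM) differed little. The part of these differences in the Cfb ratio was not tested. In DC-like cells Cfb was higher, from 19.0 to 39.9 CPM (2.1, 1.76 to 2.52).

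Cfp, which stabilises that convertase, had 405 CPM in PBS and 349 in 6C5 in the class (0.864, 0.838 to 0.890), and it turned to slightly higher, 0.11 on the log2 scale, with TMM factors. Over the PBS macrophage states it ranged from 263 CPM (Arg1-high) to 535 CPM (lipid-type). Its highest level was in cDC2, with 753 and 648 CPM, where cDC1 had 172 and 176 CPM and mature DCs 123 and 141. After thinning 45.5% of PBS and 44.8% of 6C5 cDC2 held a Cfp UMI. DC-like cells held 28.1% of the Cfp UMIs of named PBS cells and 20.9% in 6C5. In neutrophil-like cells Cfp went from 162 to 70.2 CPM (0.435, 0.358 to 0.527), the call lost with at least 1000 UMIs per barcode.

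**Figure D4:**
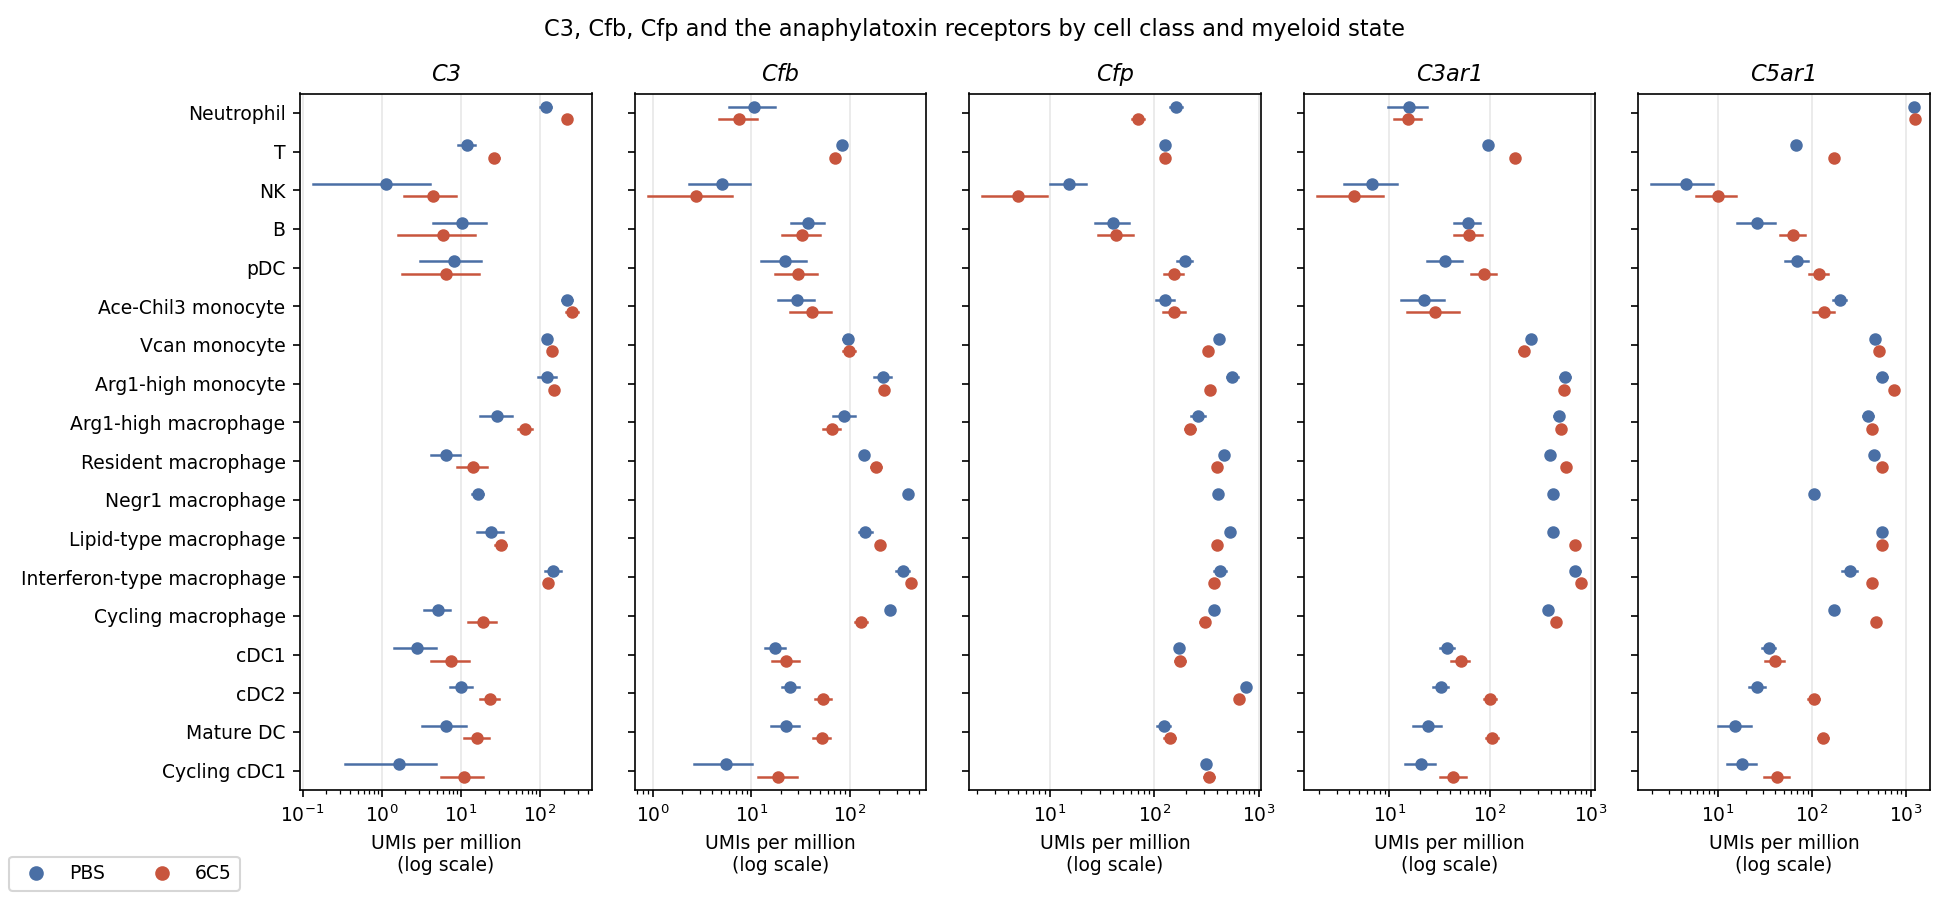
Levels of C3, Cfb, Cfp, C3ar1 and C5ar1 as UMIs per 1000000 of each class or state (log axes), PBS in blue and 6C5 in red, with bars for the exact 95% counting interval. C3 is highest in Ace-Chil3 monocytes in both libraries, followed in 6C5 by neutrophil-like cells and in PBS by interferon-type macrophages, Cfp is highest in cDC2 and C5ar1 in neutrophil-like cells, which have little C3ar1 (15.5 and 15.4).

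The receptor for C3a, C3ar1, was found in the macrophage states and in Arg1-high and Vcan monocytes. In the class it went from 377 to 596 CPM (1.58, 1.54 to 1.62), and after thinning 27.1% of PBS and 39.4% of 6C5 cells held a UMI. The C3ar1 ratio was 1.53 in the 6 shared states at each library's own mix, and 1.30 at their fixed mix. Interferon-type macrophages had the highest level, 703 and 795 CPM, and of the 6 monocyte and macrophage states compared C3ar1 was past 1.5-fold in lipid-type macrophages, from 421 to 697 CPM (1.65, 1.51 to 1.82). Ace-Chil3 monocytes (21.9 and 28.4 CPM) and neutrophil-like cells (15.5 and 15.4 CPM) had little, and Arg1-high monocytes, at 557 and 545 CPM, lay within the range of the macrophage states. Vcan monocytes had 256 and 215 CPM.

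C5ar1, the receptor for C5a, was highest in neutrophil-like cells, with 1213 CPM in PBS and 1260 in 6C5 (1.04, 0.981 to 1.10), and 61.8% and 64.8% of them held a UMI after thinning. In the monocyte and macrophage class it went from 271 to 535 CPM (1.98, 1.92 to 2.04). The C5ar1 ratio was 1.47 in the 6 shared states at each library's own mix, and 1.27 at their fixed mix. Of the PBS states in the class the Negr1 macrophages, at 104 CPM, and the cycling macrophages, at 171 CPM, had the least. Cycling macrophages had 476 CPM in 6C5, a ratio of 2.78 (2.51 to 3.07), while their Negr1 level was 298 CPM in PBS and 17.6 in 6C5. Resident (464 and 554 CPM), lipid-type (562 and 559), Arg1-high macrophages (396 and 440) and Vcan monocytes (470 and 520) differed by less than 1.5-fold. Ace-Chil3 monocytes, also within 1.5-fold, went the other way, from 199 to 136 CPM (0.683, 0.501 to 0.920), and turned to 0.15 on the log2 scale with 1000 variable genes. Thinned cells with UMIs of both receptors were 6.45% of the PBS class and 15.4% of the 6C5 class.

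In DC-like cells (813 and 489) both receptors were higher in 6C5, along with C3 and Cfb. C3ar1 went from 31.3 to 79.8 CPM (2.55, 2.24 to 2.92) and C5ar1 from 26.5 to 85.9 CPM (3.24, 2.82 to 3.72). Thus 4 of 8 members were higher and 0 lower in DC-like cells, where 5.78% of the genes tested were higher and 8.86% lower. In mature DCs, marked by Ccr7 and Fscn1, C5ar1 went from 15.3 to 131 CPM (8.50, 5.67 to 13.3) and C3ar1 from 24.2 to 104 CPM (4.30, 3.06 to 6.16). In cDC2 they went from 26.3 to 105 CPM (4.00) and from 32.2 to 101 CPM (3.12). In cDC1 they were within 1.5-fold, at 34.7 and 40.6 CPM for C5ar1 and 37.7 and 50.9 CPM for C3ar1. That depended on the processing: over the alternatives the cDC1 log2 ratio reached 1.52 for C5ar1 and 1.69 for C3ar1, both with at least 1000 UMIs per barcode, and it was past 1.5-fold at Leiden resolution 2 as well. The 6C5 levels of C5ar1 in mature DCs and cDC2 were near those of PBS Negr1 (104 CPM) and cycling macrophages (171.5 CPM) and below those of the other PBS macrophage states. Only 9.82% of thinned 6C5 mature DCs had a C5ar1 UMI against 3.40% in PBS. In the same DC-like cells Spp1, a macrophage gene abundant in 6C5, went from 82.4 to 592 CPM and Arg1 from 11.9 to 178, while Csf1r (60.9 and 48.6 CPM) and Adgre1 (37.3 and 39.1 CPM) differed little; their part in the receptor values was not tested.

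Counts of members past 1.5-fold differed between states. They were 5 higher and 0 lower in cDC2 (6.46% and 10.4% of all genes), 3 higher and 0 lower in lipid-type macrophages (8.71% and 8.09%), and 3 higher and 1 lower of 7 in mature DCs (9.47% and 5.68%). At Leiden resolution 2 the calls of C1qb and Cfb in cDC2, of C1qa and C1qc in lipid-type macrophages and of C1qa in mature DCs were lost. In cycling macrophages 2 were higher and 1 lower (5.58% and 14.1%), and in cDC1 0 were higher and 3 lower of 7 (4.55% and 9.76%). In Vcan monocytes 0 of 8 (2.72% and 9.44%) and in resident macrophages 0 of 7 (5.09% and 14.9%) passed in either direction. In Arg1-high macrophages C3 was higher and no member lower (10.3% and 13.1%), and in Ace-Chil3 monocytes the 3 C1q chains of 6 members were lower (3.85% and 8.59%). In T-like cells C3, C3ar1 and C5ar1 were higher and the C1q chains lower (5.34% and 7.25%), the calls of the monocyte and macrophage class. The macrophage genes Arg1 (25.6 to 374 CPM) and Spp1 (143 to 982 CPM) were higher in the same T-like cells, and their part in these calls was not tested. With at least 1000 UMIs per barcode or with no doublet removal all 3 C1q calls of T-like cells were lost.

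Other complement genes were read from a list of 40. In monocyte-like and macrophage-like cells 16 had at least 50 UMIs: 3 were higher (Itgax, C5ar2 and Lair1), 6 lower and 7 within 1.5-fold, with a median log2 ratio of -0.06 against -0.34 over all genes. The lectin pathway ficolin Fcna went from 52.4 to 4.21 CPM (log2 -3.64) and the classical component C4b from 44.4 to 9.98 (-2.15). Fcna sat in resident macrophages (229 CPM in PBS, 23.6 in 6C5) and C4b in Negr1 macrophages, at 75.3 CPM in PBS. Of the regulators, Cd59a, which blocks the membrane attack complex, went from 4.76 to 2.75 CPM (-0.79). Of the receptors and binding proteins, C5ar2, the second C5a receptor, went from 5.54 to 10.9 CPM (0.98), the C1q-binding inhibitory receptor Lair1 from 106 to 163 (0.61) and C1qbp from 135 to 68.4 (-0.99). C9 had 61 UMIs in all (-0.59). With TMM factors 5 of the 16 were higher and 4 lower.

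The genes whose log2 level was most like a member's over the 34 profiles were, for summed C1q, Ms4a7 (r = 0.954), Psd3 (0.951) and Siglec1 (0.949). For C3 they were Clec4e (0.918), Tarm1 (0.903) and Prdx5 (0.899), and for Cfb Siglec1 (0.935), Fcgr1 (0.919) and Cndp2 (0.919). For Cfp they were Tgfbi (0.909), Wfdc17 (0.907) and Cysltr1 (0.897). C3ar1 was most like Ccl7 (0.960), Slc7a8 (0.952) and Ms4a7 (0.947), and C5ar1 most like Cd300ld (0.934), Slc15a3 (0.926) and Ccl6 (0.921). Among the members themselves C3ar1 and Cfb ran closest outside C1q (0.944). Profiles share libraries and depth, so these correlations describe these 2 libraries.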

How the data were processed

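Both deposited files hold unnormalized UMI counts by gene and barcode. Per the file headers Cell Ranger 7.1.0 made them, though Cell Ranger 2.1.1 (and mm10) stands in the submitters' processing notes; how introns were handled was not given in the sources used here. Kept were 13992 PBS and 13541 6C5 barcodes with 500 UMIs and 300 genes or more and a mitochondrial share of 10% or less. The doublet caller (Scrublet, scanpy 1.11.5) marked 0 barcodes in each library and had not worked, so the highest-scoring 1566 and 1467 were removed. The rest were clustered without complement genes (2000 variable genes, 30 components, Leiden resolution 1) and named from markers. Clusters correlating at 0.98 or more with free RNA (barcodes of 10 to 100 UMIs), with few UMIs, under 3 markers, leading genes of another kind or under 20 barcodes stayed unnamed, 7939 PBS and 6881 6C5 barcodes. Another 74 and 110 barcodes, in subclusters led by neutrophil or T-cell genes, were left out. These rules were set after the data were seen.

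Counts were summed per library and class (at least 100 cells in each library) or state (at least 50). Free RNA was estimated from melanoma and haemoglobin genes. With 1 library per group no test was possible. All 8 members are named, and of the other 40 complement genes those 8 with the largest log2 ratio are given with values, except 1 that is not reported here. Likeness is Pearson's r of log2(CPM + 1) over genes with at least 200 UMIs. The members and lists were chosen with earlier results of these data known. TMM factors came from edgeR 4.0.16 and size factors from DESeq2 1.42.0 (R 4.3.3). Ratios were tested on simulated counts of monocyte-like and macrophage-like cells, where 98.5% of the genes changed 2-fold passed 1.5-fold, as did 0.973% of unchanged genes. The simulated counts held counting error only, so these shares do not cover differences between libraries, mice or cell mixes. Positions are from GENCODE mouse release 21.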

Additional observations from a re-analysis of the deposited data

Results flagged for a closer look

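Members that were past 1.5-fold in opposite directions in 2 myeloid states are given here; the difference between the states was not tested, since each group has 1 library. C1qa had a log2 ratio of -2.75 in Ace-Chil3 monocytes and 1.05 in lipid-type macrophages, and C1qc had -2.87 and 0.85 in the same states. C1qb had -2.66 in Ace-Chil3 monocytes and 0.67 in cDC2. The Ace-Chil3 values rest on 434 C1q UMIs in PBS and 36 in 6C5, of which free RNA was estimated to supply 42.5% and 93.0%, and they turned with 1000 variable genes (C1qb 0.23). The cDC2 value of C1qb turned to -0.27 at Leiden resolution 2. Cfb had -0.97 in cycling macrophages, from 1556 and 178 UMIs, and 1.21 in mature DCs, from 38 and 104 UMIs. Cycling macrophages of the libraries also differed in Negr1 (298 CPM for PBS, 17.6 for 6C5). Lipid-type macrophages differed in Ctsk (9.91 CPM for PBS, 71.4 for 6C5). The part of such differences in these ratios was not tested.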

How the results depend on the processing

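No paired analysis was possible because each group has 1 library and the labels give no replicate numbers, and no replicate could be left out. In all, 52 ratios were past 1.5-fold, of members by class or state and of summed C1q by state. Recomputed in 470 values under the alternatives, 455 kept their direction and 420 stayed past 1.5-fold. A state without 50 cells in each library gave no value and is not in these counts. Summed C1q of Arg1-high macrophages had a value under 5 alternatives. It had one under 8 in resident and lipid-type macrophages and Vcan monocytes, and under 9 in cycling macrophages. The cause of each turn below was not tested.

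With at least 1000 UMIs per barcode the log2 ratios turned in T-like cells (C1qa 0.16, C1qb 0.13), cDC1 (C1qa 0.76, C1qb 1.13, C1qc 0.99, summed 0.99) and mature DCs (C1qa 0.73), and lipid-type macrophages gave no value. With no doublet removal those of T-like cells turned (C1qa 0.015, C1qb 0.083). With 1000 variable genes those of Ace-Chil3 monocytes turned (C1qa 0.12, C1qb 0.23, C1qc 0.19, summed 0.19), and at Leiden resolution 2 C1qb in cDC2 (-0.27). With free RNA subtracted C1qb in neutrophil-like cells was 3.30, a value that rests on a floor of 3 UMIs for PBS, where no C1qb UMIs were left.

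Summed C1q in monocyte-like and macrophage-like cells (log2 -0.73) was -0.75 with at least 1000 UMIs, -0.41 with TMM and -0.38 with DESeq2 size factors. With choices added after seeing the data it was -0.33 without the Negr1 macrophages, -0.72 with low-UMI Lyve1 barcodes counted in and -0.77 with mixed subclusters counted in. The count of members past 1.5-fold lower there was 3 as reported and 0 with TMM, with DESeq2 and without the Negr1 macrophages; the 3 members higher stayed 3 in each of these. The PBS and 6C5 levels were 14657 and 8699 CPM (at least 1000 UMIs), 14855 and 8931 (at most 5% mitochondrial), 14595 and 8818 (no doublet removal), 14670 and 8811 (1000 variable genes), 14644 and 8841 (resolution 2), 14605 and 8815 (complement genes kept), 15117 and 9103 (free RNA subtracted), and 14675 and 8621 (mixed subclusters). PBS was at 11266 CPM without Negr1 macrophages, and 6C5 at 9054 with low-UMI barcodes. The fixed-mix log2 ratio was 0.05 as reported and -0.052 at resolution 2. With at least 1000 UMIs it was -0.21, and lipid-type macrophages were not in that mix. The C1q log2 ratio of lipid-type macrophages, 0.77 as reported, was 0.83 (at most 5% mitochondrial), 1.03 (1000 variable genes), 0.43 (resolution 2), 0.74 (complement genes kept), 0.85 (TMM) and 0.85 (DESeq2).

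The share of cells with C1q was 81.4% in PBS and 67.6% in 6C5 when thinned to 2000 UMIs, and 67.1% in PBS without Negr1 macrophages. The wider list's median log2 ratio, -0.06 as reported, was 0.055 with at least 1000 UMIs per barcode, 0.27 with TMM, 0.30 with DESeq2, 0.10 with at least 200 UMIs per gene and 0.087 without Negr1 macrophages. With TMM or DESeq2 5 of its genes were higher, against 3 as reported.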

Other observations

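Melanoma-like cells that passed the CD45 sort held complement RNA of another kind, and the genes named here were chosen once those values were known. C2, the classical pathway protease, had 186 CPM in PBS (1133 UMIs) against 124 CPM in 6C5 (2277 UMIs). Monocyte-like and macrophage-like cells had 1.83 and 1.69 CPM of it. Like Cfb, C2 overlaps the gene model Gm20547, so its counts are uncertain. In melanoma-like cells Clu (clusterin, a soluble regulator) had 79.4 and 111 CPM, and Masp1, a lectin pathway protease, was at 10.7 and 29.3 CPM. C4b was at 39.5 and 23.6 CPM. Summed C1q was at 128 and 136 CPM there, C3 at 0.820 and 2.56 CPM and C5ar1 at 1.80 and 10.1 CPM. No free RNA estimate was made for melanoma-like cells, since it uses melanoma genes. Free RNA itself held 7645 and 3266 CPM of summed C1q. The median melanoma-like cell had 0.284 C1q UMIs per 10000 in PBS and 0 in 6C5, and the source of these UMIs was not tested.

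A cluster left unnamed for its low depth, 529 PBS and 86 6C5 barcodes with medians of 655 and 868 UMIs, was led by Lyve1, Gas6 and Npl. It held 12489 and 15116 CPM of summed C1q, and C3 at 1.98 and 32.9 CPM.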
